A study of Mus musculus with 6 samples.

Results

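The 37 genes described here serve the endoplasmic reticulum (ER) in 3 tasks, which are folding new proteins, moving them across its membrane and removing those that do not fold. They were chosen by name, with no threshold on a measured value, as the rows of the count table whose Ensembl identifier carries one of the listed symbols. The list was drawn up with earlier results of these data known. All 37 were found among 55335 identifiers, and all 37 passed the filter on low counts. They fall into 9 chaperones and cochaperones, 5 protein disulfide isomerases, 2 lectin chaperones, 3 regulators of the unfolded protein response, 10 subunits of the translocon and signal peptidase, and 8 genes of ER-associated degradation.

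The libraries came from CD8+ T cells with the P14 transgenic receptor, which recognises the GP33-41 peptide of the B16-GP33-41 melanoma. Donor cells were transferred on day 11 after tumor implantation into C57BL/6 mice and sorted later from tumor (P14 TIL, 3 libraries) or from spleen (P14 Sp, 3 libraries). The labels of both groups give the strain C57BL/6, the P14 TCR transgenic genotype and an age of 10 weeks. Every spleen came from a tumor-bearing mouse, so neither group is a control without tumor, and only the tumor samples passed through a Percoll gradient.

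Secreted and membrane proteins enter the ER through the SEC61 channel, where chaperones and disulfide isomerases fold them. When unfolded proteins build up, the sensors IRE1 (Ern1), ATF6 and PERK start the unfolded protein response, in which ATF6 and spliced XBP1 raise transcription of chaperone and degradation genes. Proteins that fail to fold are passed back to the cytosol and ubiquitinated by the SEL1L and HRD1 (Syvn1) complex. Activated T cells make large amounts of secreted and surface protein, and the XBP1 arm is known from effector CD8+ T cells.

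Totals were 35095261 to 38263483 counts per library, so a gene with 0 counts could hold up to 3 counts, at most 0.0855 CPM (counts scaled to a library total of 1000000). No label ties each library to its own mouse, so the p-values reflect the spread among these 3 libraries per tissue, which could be technical. T cell markers were high in both tissues, with Cd3e at 594 ± 7.40 CPM (tumor) and 634 ± 4.66 CPM (spleen, SD, n = 3 each). Of that list of 8, 1 gene was higher in tumor and 3 were lower. B cell markers were lower in tumor for 16 of 16 genes, with summed levels of 301 to 304 CPM in tumor and 2590 to 2620 CPM in spleen, and most of the tumor sum was Ighm (270 CPM). Macrophage markers (18 of 18, sums of 86.5 to 92.5 against 467 to 488 CPM) and dendritic cell markers (9 of 9 tested, 60.7 to 67.5 against 651 to 656 CPM) were lower as well. Of 2 tested fibroblast and endothelial markers 1 was lower (sums of 52.3 to 57.1 against 86.4 to 88.5 CPM). Fewer cells of a type and less RNA per cell cannot be told apart in such bulk samples. The codes of the columns end in one number for tumor and in another for spleen, with no explanation in the labels, and if this is a batch it cannot be told apart from tissue.

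A textbook element of this pathway, the ER stress element, is bound by ATF6 together with the factor NF-Y and reads CCAAT, any 9 bases, then CCACG. Its letters were searched on both strands of RefSeq promoter windows of 300 bases (GRCm38.p6, 250 before to 50 after the start), with those of 2 related elements. Windows were at hand for 30 of the 37 genes, 31 in all, and not for Atf6, Derl1, Hyou1, Manf, Sec11c, Sec61a1 and Ssr2. The element stood in 9 of the 31 windows (29.0%) and in 39 of 32851 windows of all genes (0.119%). It was picked because it is known from genes of this pathway, so its larger share here is description and not a result. The second element, ATTGG, any base, CCACG, stood in Dnajb11 and Herpud1, and in 12 of all windows (0.0365%). The third, TGACGTGG, was in none of the 31 windows and in 222 of all (0.676%). No match of one element overlapped a match of another. The matches are shown because genes that rose and genes that fell in tumor both carry them. Each is read along the gene's strand, with the searched letters in capitals. Those that begin with CGTGG are matches on the other strand.
Pdia6, chr12:17266491-17266509: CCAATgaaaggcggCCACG
Creld2, chr15:88819520-88819538: CGTGGcgagcctcaATTGG
Hspa5, chr2:34772025-34772043: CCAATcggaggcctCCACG
Canx, chr11:50325800-50325818: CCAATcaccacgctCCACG
Calr, chr8:84847075-84847093: CGTGGtcgaccctcATTGG
Hsp90b1, chr10:86705638-86705656: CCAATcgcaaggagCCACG
Hsp90b1, chr10:86705533-86705551: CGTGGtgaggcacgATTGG
Dnajb11, chr16:22857852-22857862: ATTGGcCCACG
Herpud1, chr8:94386377-94386387: ATTGGgCCACG
Dnajc3, chr14:118937827-118937845: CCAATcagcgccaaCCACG
Syvn1, chr19:6046532-6046550: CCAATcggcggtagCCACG
Derl3, chr10:75893242-75893260: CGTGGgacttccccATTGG

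Of the 11 genes with a match, 7 were higher in tumor (Pdia6 to Dnajb11 in the order above) and 4 were lower (Herpud1, Dnajc3, Syvn1 and Derl3). Over all genes tested the shares were 34.8% higher and 35.9% lower, and the count of lower genes is near that background. The median log2 fold change of the 11 was 0.27. Of the 19 genes whose window held no match, 8 were higher, 2 were lower and 9 did not pass, with a median of 0.20. A match is a description of letters, and its absence says nothing about the factor.

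The full windows of Hspa5, which rose, and Syvn1, which fell, are given below. Both hold the element close to the RefSeq start, from base -65 and base -44. The windows lie at chr2:34771840-34772139 and chr19:6046326-6046625, both on the plus strand. The GENCODE M21 model of Hspa5 begins before the RefSeq start, at base 34771970, so the element lies inside that model.
Hspa5: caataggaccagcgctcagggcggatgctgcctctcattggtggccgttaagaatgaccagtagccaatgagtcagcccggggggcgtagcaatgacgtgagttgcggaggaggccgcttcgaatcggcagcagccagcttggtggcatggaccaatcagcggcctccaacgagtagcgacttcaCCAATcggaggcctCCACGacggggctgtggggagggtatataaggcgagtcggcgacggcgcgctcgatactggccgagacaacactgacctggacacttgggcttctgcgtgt
Syvn1: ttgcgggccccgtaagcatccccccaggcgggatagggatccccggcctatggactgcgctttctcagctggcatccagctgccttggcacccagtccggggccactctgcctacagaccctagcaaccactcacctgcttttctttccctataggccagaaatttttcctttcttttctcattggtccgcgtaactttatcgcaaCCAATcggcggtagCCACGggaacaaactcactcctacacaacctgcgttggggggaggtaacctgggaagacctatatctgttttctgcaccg

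Member genes of folding and translocation were mostly higher in P14 cells from tumor, and no member gene of ER degradation was called higher. Of the 37 genes, 20 were higher in tumor, 7 were lower and 10 did not pass (quasi-likelihood F-test of edgeR, p adjusted by Benjamini-Hochberg over all genes tested, threshold 0.05). The 20 are 54.1% of the members, where 34.8% of all 19783 genes tested were higher. Lower calls made up 35.9% of all genes tested. Among the 10685 genes with a mean of at least 10 CPM, 42.2% were higher. The members were chosen with earlier results of these data known, so these shares stand side by side without a test. All rises were modest, from 1.19-fold to 1.89-fold, and the falls ran from 1.16-fold to 2.82-fold. The median log2 fold change (tumor over spleen) was 0.27 for the members and -0.02 for all genes tested.

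In CPM over library totals, the tumor libraries all lay above the spleen libraries for 21 of the 37 genes. They all lay below for 9, and the tissues overlapped for 7. Over all genes tested the first 2 arrangements held for 35.1% and 39.4%. These CPM leave out the scaling factors of the fit. The 21 include Edem2, and the 9 include Edem1 and Derl1, which did not pass the F-test (adjusted p = 0.086, 0.99 and 0.27). Against a null of at most a 2-fold change, 0 members were higher and 1, Derl3, was lower, where 5.87% and 9.42% of all genes tested passed. By that edgeR test without adjustment, the counts at p below 0.05 were also 0 and 1.

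**Figure D1:**
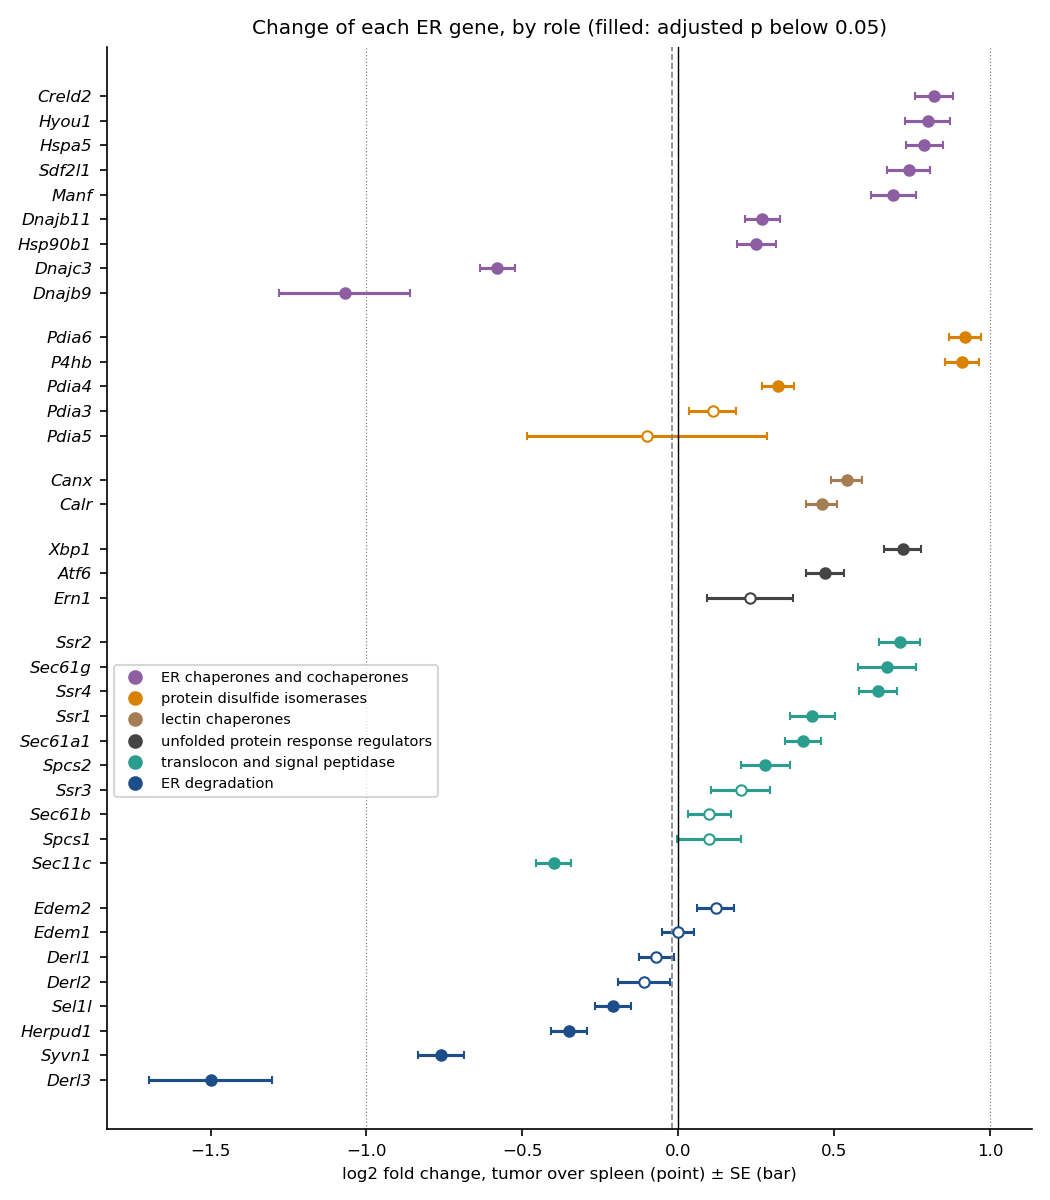
Log2 fold change of each of the 37 genes, tumor over spleen (horizontal axis), with its standard error as a bar, grouped by role. Filled points passed at an adjusted p below 0.05, the dashed line is the median of all genes tested (-0.02), dotted lines mark a 2-fold change, and no degradation gene is filled on the right of 0.

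Among the 9 chaperones and cochaperones, 7 rose and 2 fell, with a median log2 fold change of 0.69. Over all genes tested 34.8% were higher and 35.9% lower, which is the background for each role below as well. Hspa5 encodes BiP, the HSP70 chaperone of the ER lumen that also holds the stress sensors inactive. It was at 714, 675 and 778 CPM in tumor replicates 1 to 3 and at 424, 434 and 421 CPM in spleen. The lowest tumor library was far above the highest spleen library, and the log2 fold change was 0.79 (SE 0.058, adjusted p = 3.0e-07). Hspa5 lies at chr2:34771970-34777547 in mm10.

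Creld2, an ER-stress induced protein with disulfide isomerase activity, rose 1.76-fold, from 41.6 ± 1.23 to 71.8 ± 2.15 CPM (SD, n = 3 each, adjusted p = 3.7e-07). Hyou1, the large nucleotide exchange factor of BiP, was at 81.3, 83.8 and 78.7 CPM in tumor and 51.4, 47.8 and 43.3 CPM in spleen (log2 fold change 0.80, SE 0.071, adjusted p = 1.4e-06). Both genes separated the tissues with no overlap. Sdf2l1, a partner of BiP and ER J proteins, rose 1.67-fold, and Manf, a secreted ER stress protein that binds BiP, rose 1.61-fold. The smallest rises of this role were in Hsp90b1 and Dnajb11. Hsp90b1, the ER form of HSP90 (GRP94), rose only 1.19-fold, at 434, 422 and 503 CPM in tumor and 391, 388 and 385 CPM in spleen (adjusted p = 0.0040). Dnajb11, a J protein that delivers substrates to BiP, rose 1.20-fold.

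The 2 falls in this role were both in J proteins. Dnajc3, known as P58IPK, a luminal cochaperone of BiP, was at 115, 115 and 129 CPM in tumor and 183, 183 and 182 CPM in spleen (log2 -0.58, SE 0.057, adjusted p = 3.1e-06). Dnajb9, also called ERdj4, a classical target of XBP1, was at 2.03, 3.45 and 4.50 CPM in tumor and 8.01, 6.61 and 6.78 CPM in spleen (log2 -1.07, SE 0.21, adjusted p = 7.4e-04). The tumor libraries of Dnajb9 differ by over 2-fold among themselves, yet all lie below spleen. Within each library, Hspa5 had 5.86 to 6.23 times the counts of Dnajc3 in tumor and 2.31 to 2.38 times in spleen, a ratio that no scaling between libraries can change.

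Heat shock genes of the cytosol and mitochondria, which tissue dissociation can induce, rose in the same libraries for 10 of 10 genes. Their summed level was 6100 to 6440 CPM in tumor and 2380 to 2420 CPM in spleen, and their part in the rise of the ER chaperones was not tested.

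**Figure D2:**
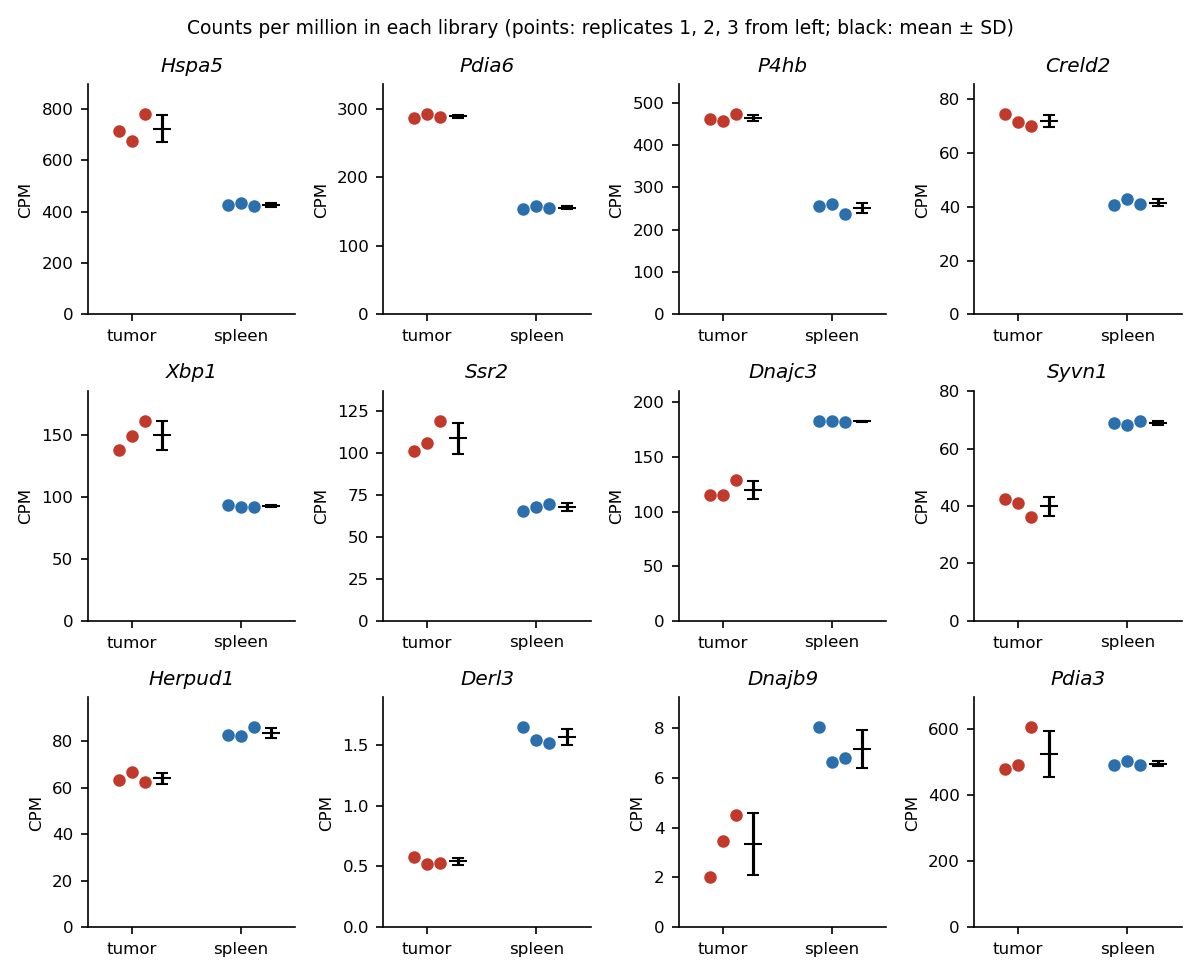
CPM in each library for 12 of the genes, with tumor in red, spleen in blue and the mean ± SD (n = 3) in black. All 3 tumor libraries lie above spleen for Hspa5, Pdia6, P4hb, Creld2, Xbp1 and Ssr2, all lie below for Dnajc3, Syvn1, Herpud1, Derl3 and Dnajb9, and the tissues overlap for Pdia3.

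Protein disulfide isomerases form and rearrange disulfide bonds, and 3 of the 5 rose. Pdia6 changed most of all 37 genes upward, from 154, 158 and 156 CPM in spleen to 287, 292 and 289 CPM in tumor (1.89-fold, log2 0.92, SE 0.050, adjusted p = 2.6e-08). P4hb, which encodes the classical PDI, followed at 462, 457 and 472 CPM in tumor and 257, 260 and 237 CPM in spleen (1.88-fold, log2 0.91, SE 0.054, adjusted p = 5.3e-08). In both genes the gap between tissues was many times the spread within them. Pdia4, also called ERp72, rose 1.24-fold (203 ± 6.35 against 166 ± 4.85 CPM).

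Pdia3, the glycoprotein isomerase that also serves MHC class I assembly, did not pass. It was at 479, 492 and 605 CPM in tumor and 493, 503 and 490 CPM in spleen (log2 0.11, SE 0.075, adjusted p = 0.21). Tumor replicate 3 alone stood above spleen, while replicate 2 lay within the spleen range and replicate 1 below it. Without tumor replicate 1 its log2 fold change was 0.18 and the adjusted p was 0.039. Pdia5 was near the floor in both tissues, at 0.647 ± 0.283 and 0.707 ± 0.292 CPM. The ratio of Pdia6 to Pdia3 counts was 0.477 to 0.600 in tumor libraries and 0.312 to 0.318 in spleen.

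The lectin chaperones bind glycoproteins in the ER, calreticulin in the lumen and calnexin in the membrane, and both rose. Calr was at 618, 598 and 623 CPM in tumor and 453, 454 and 453 CPM in spleen (log2 0.46, SE 0.049, adjusted p = 6.1e-06). Canx was at 381, 389 and 370 CPM in tumor and 271, 265 and 266 CPM in spleen (log2 0.54, SE 0.051, adjusted p = 2.7e-06). Neither gene overlapped between tissues.

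Of the 3 regulators of the unfolded protein response, Xbp1 and Atf6 rose. Xbp1, the transcription factor made active by IRE1 splicing, was at 138, 149 and 161 CPM in tumor and 93.6, 92.0 and 92.0 CPM in spleen (1.65-fold, log2 0.72, SE 0.060, adjusted p = 8.7e-07). Gene counts do not separate spliced from unspliced Xbp1. Atf6, a membrane-bound factor released by cleavage, was at 51.2, 53.5 and 52.6 CPM in tumor and 39.4, 36.8 and 39.2 CPM in spleen (1.39-fold, adjusted p = 2.8e-05). Ern1, which encodes IRE1 itself, was at 9.79, 9.96 and 6.96 CPM in tumor and 7.79, 8.05 and 7.47 CPM in spleen (log2 0.23, SE 0.139, adjusted p = 0.16). Tumor replicates 1 and 2 of Ern1 lay above spleen and replicate 3 below it, and without replicate 3 the log2 fold change was 0.39 (adjusted p = 0.0017).

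The translocon and signal peptidase group held 6 rises and 1 fall among its 10 genes, with a median of 0.34. Over all genes tested 34.8% were higher and 35.9% lower. Among genes with a mean of at least 10 CPM, as all of this group were, 42.2% were higher. Of the SEC61 channel, the pore subunit gene Sec61a1 rose from 295, 296 and 295 CPM in spleen to 393, 395 and 361 CPM in tumor (log2 0.40, SE 0.057, adjusted p = 6.4e-05). Sec61g, which encodes a small subunit, rose 1.59-fold (34.6 ± 4.23 against 22.2 ± 1.66 CPM). The other small subunit gene, Sec61b, was at 48.7 ± 4.01 and 46.3 ± 2.14 CPM and did not pass (adjusted p = 0.21). Without tumor replicate 1, Sec61b had a log2 fold change of 0.17 and an adjusted p of 0.033.

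The translocon-associated protein complex, which helps some signal sequences to enter, is made of Ssr1 to Ssr4. Ssr2 changed most in this role, at 101, 106 and 119 CPM in tumor and 65.2, 68.0 and 69.8 CPM in spleen (1.64-fold, log2 0.71, SE 0.065, adjusted p = 1.7e-06). Ssr4 rose 1.56-fold and Ssr1 1.35-fold, and neither overlapped between tissues. Ssr3 was at 65.1, 78.3 and 90.9 CPM in tumor and 69.5, 66.7 and 71.9 CPM in spleen (log2 0.20, adjusted p = 0.082). It passed without tumor replicate 1 (log2 0.32, adjusted p = 0.0014) and with no filter on low counts (log2 0.21, adjusted p = 0.0096).

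Signal peptidase removes the signal sequence, and its subunits among the members went different ways. Its other subunits are not members and are counted with the further genes of translocation below. Spcs2 rose 1.22-fold, at 140, 152 and 182 CPM in tumor and 134, 133 and 130 CPM in spleen (adjusted p = 0.0066). Spcs1 was at 53.4, 60.4 and 76.6 CPM in tumor and 62.0, 57.4 and 61.3 CPM in spleen, and passed only without tumor replicate 1 (log2 0.22, adjusted p = 0.040). Sec11c, a catalytic subunit, was lower, at 87.5, 89.9 and 98.7 CPM in tumor and 123, 124 and 125 CPM in spleen (log2 -0.40, SE 0.057, adjusted p = 6.4e-05). In 9 of these 10 genes tumor replicate 3 was the highest tumor library, and in 9 replicate 1 was the lowest. Over all genes tested, replicate 3 was highest for 41.3% and replicate 1 lowest for 40.6%.

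Of the 8 genes of ER-associated degradation 4 fell, 4 did not pass and 0 rose, and the median log2 fold change was -0.16. Over all genes tested 35.9% were lower, so the count of falls is near the background, and 34.8% were higher. Counts of 0 higher and 4 lower were also given by edgeR at an unadjusted p below 0.05, by limma-voom and by DESeq2. Syvn1, the ubiquitin ligase HRD1 at the centre of the pathway, was at 42.3, 41.1 and 36.1 CPM in tumor and 68.8, 68.1 and 69.6 CPM in spleen (1.69-fold lower, log2 -0.76, SE 0.074, adjusted p = 3.0e-06). Its partner Sel1l fell by 0.21 on the log2 scale, from 82.0, 84.2 and 84.8 CPM in spleen to 73.5, 70.2 and 69.2 CPM in tumor (adjusted p = 0.0076). Herpud1, a membrane protein of the same complex, was at 63.2, 66.8 and 62.4 CPM in tumor and 82.6, 82.4 and 86.0 CPM in spleen (log2 -0.35, SE 0.058, adjusted p = 2.1e-04). In none of the 3 genes did a tumor library reach the spleen range.

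Derl3, a derlin of the retrotranslocation step, had the largest fall in size and rests on few reads, a sum of 60 counts in tumor and 171 in spleen. It was at 0.576, 0.523 and 0.525 CPM in tumor and 1.64, 1.54 and 1.51 CPM in spleen (log2 -1.50, SE 0.198, adjusted p = 3.7e-05). Against the 2-fold null its adjusted p was 0.026, and this call was lost without tumor replicate 2 (adjusted p = 0.068) or 3 (0.068) and without spleen replicate 1 (0.073) or 2 (0.055). The other derlins did not pass, with Derl1 at 92.2 ± 4.72 and 98.8 ± 1.98 CPM and Derl2 at 38.9 ± 4.90 and 42.9 ± 1.09 CPM.

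Edem1 and Edem2, lectin-like proteins that trim mannose on misfolded glycoproteins, did not pass. Edem1 was at 218 ± 2.77 CPM (tumor) and 222 ± 2.67 CPM (spleen), with an adjusted p of 0.99. Edem2 was at 67.4, 64.0 and 63.3 CPM in tumor and 60.5, 60.8 and 61.2 CPM in spleen (log2 0.12, adjusted p = 0.086), and passed without tumor replicate 3 (log2 0.16, adjusted p = 0.013).

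Markers of plasma cells, whose ER is large, moved between the tissues alongside the falls. Plasma cell markers were lower in tumor for 10 of 13 tested genes, with summed levels of 259 to 268 CPM in tumor and 347 to 353 CPM in spleen. The other 3 were higher in tumor, with Irf4 at 5.90-fold, Sdc1 at 4.70-fold and Prdm1 at 1.38-fold. Jchain, the joining chain of secreted antibody, was at 0.0445 ± 0.0294 CPM (tumor) and 17.6 ± 0.722 CPM (spleen), and Ighg2b and Ighg2c had 0 counts in tumor. The highest members of that list were Irf4 in tumor (123 CPM) and Txndc5 in spleen (184 CPM), both of which T cells express too. The part of plasma cells and B cells in the falls of Derl3, Sec11c, Dnajb9, Dnajc3, Syvn1, Herpud1 and Sel1l was not tested. Of 4 tested melanoma genes 1 was higher in tumor and 1 lower, and the sums over the list were 21.6 to 23.1 CPM in tumor and 32.9 to 33.6 CPM in spleen. Dct was higher, at 0.460 ± 0.018 against 0.00885 ± 0.0153 CPM (51 counts and 1 count), and Pmel was lower, at 8.54 ± 0.876 against 19.8 ± 1.07 CPM. Mlana (0.171 ± 0.0426 against 0.0190 ± 0.0329 CPM) and Tyrp1 (0.575 ± 0.304 CPM against 0 counts) did not pass the filter on low counts.

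Summed over all 37 genes, the share of counts was 0.604%, 0.612% and 0.650% in tumor and 0.490%, 0.490% and 0.485% in spleen. The 16 folding genes (chaperones, isomerases and lectins) had 7.09, 6.87 and 7.69 times the summed counts of the 8 degradation genes in the tumor libraries. In the spleen libraries this ratio was 4.73, 4.74 and 4.64. The translocon genes had 1.87, 1.97 and 2.13 times the counts of the degradation genes in tumor and 1.46, 1.45 and 1.46 times in spleen. These ratios are taken within a library and do not depend on scaling between libraries, and no test was made over the summed members. The further degradation genes described below summed to 2300 to 2330 CPM in tumor and 2240 to 2290 CPM in spleen. The further folding and glycan quality control genes summed to 1880 to 1950 and 1770 to 1830 CPM. The ratios thus describe the listed members and not all genes of either task.

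**Figure D3:**
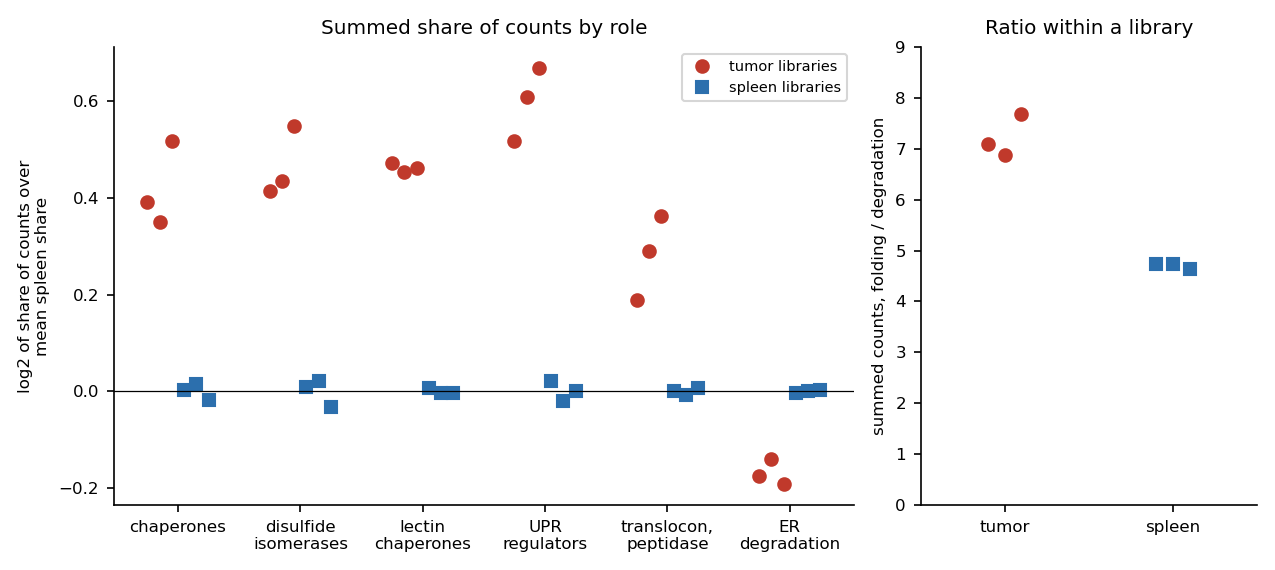
Left, the summed share of counts of each role in each library, as log2 of the share over the mean spleen share, with tumor as red circles and spleen as blue squares. Right, the ratio of summed folding counts to summed degradation counts, which was 6.87 to 7.69 in tumor and 4.64 to 4.74 in spleen. The degradation role alone lies below 0 in tumor.

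Per kilobase of exon, a scale that allows levels of different genes to be compared, the order of the most abundant genes differed between tissues. In tumor, Calr led at 213 ± 4.63 CPM per kilobase, followed by Hspa5 (171 ± 12.3), Pdia3 (167 ± 22.2) and P4hb (162 ± 2.67), and these last 3 did not differ beyond their spread. In spleen, Pdia3 (158 ± 2.19) and Calr (157 ± 0.343) led within their spread of each other, ahead of Hspa5 (101 ± 1.73), Hsp90b1 (96.2 ± 0.738) and P4hb (87.9 ± 4.29). Xbp1 stood 21st of 37 in spleen and 13th in tumor on this scale. Syvn1 was at 8.20 ± 0.673 in tumor and 14.2 ± 0.150 in spleen, and Sel1l at 8.30 ± 0.265 and 9.78 ± 0.168. Both were far lower than Calr, Hspa5, Pdia3 and P4hb in both tissues. Among the chaperones, Dnajb9 (1.31 in tumor and 2.8 in spleen) was lower than both, and Hyou1 (11.2 and 6.57) was lower than both in spleen. Exons of all annotated transcripts set the length, so genes with long rare isoforms are understated.

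**Figure D4:**
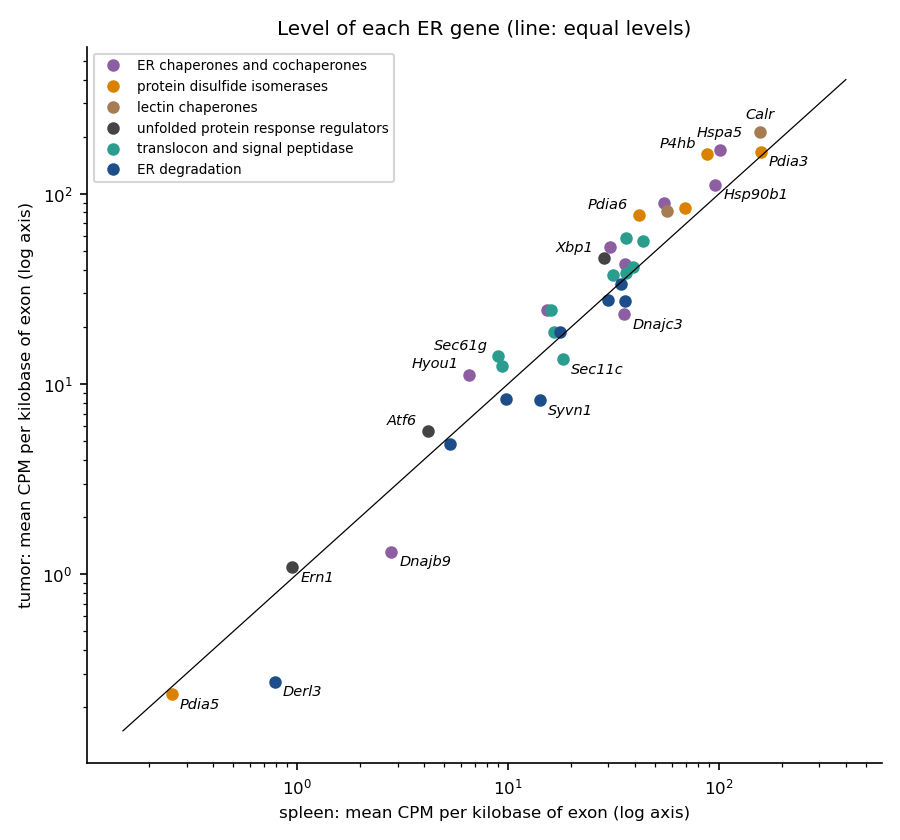
Mean level of each of the 37 genes in CPM per kilobase of exon, spleen on the horizontal and tumor on the vertical log axis, coloured by role, with some genes named. Points above the line are higher in tumor; Calr and Pdia3 are at the top right, Pdia5 and Derl3 at the bottom left, and Dnajb9, Derl3, Syvn1 and Dnajc3 lie furthest below the line.

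Other genes of the same pathway, 4 lists with 127 entries in all, were read from the same fit, without a test of any list. Their counts stand beside 34.8% higher and 35.9% lower over all genes tested. Of 41 further genes of translocation, signal recognition and glycosyl transfer, all of which were tested, 25 were higher and 6 lower, with a median of 0.31. The oligosaccharyltransferase genes Ddost (284 ± 8.48 against 180 ± 1.81 CPM, 1.61-fold) and Stt3b (193 ± 3.99 against 125 ± 1.58 CPM, 1.57-fold) had the smallest p among the rises. Tram1, a translocating chain-associated membrane protein, fell from 354 ± 5.59 to 195 ± 18.4 CPM (log2 -0.84), and Emc9, of the membrane insertion complex, from 13.8 ± 0.0547 to 6.87 ± 0.245 CPM.

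Of 31 tested genes of folding and glycan quality control (36 listed), 13 were higher and 9 lower (median 0.16). The oxidases that recharge PDI went opposite ways. Ero1l was at 116, 128 and 143 CPM in tumor and 62.8, 60.1 and 59.5 CPM in spleen (2.16-fold higher, adjusted p = 8.9e-08). Ero1lb was at 9.79, 9.91 and 11.0 CPM in tumor and 22.4, 24.7 and 22.7 CPM in spleen (2.23-fold lower, adjusted p = 2.1e-07). Mogs, the glucosidase that starts glycan trimming, rose 1.77-fold. Mzb1, a cochaperone of B and plasma cells, summed to 2 counts in tumor and 1049 in spleen.

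Of the further degradation genes, 9 of 25 tested were higher and 8 lower (26 listed, median -0.05), near the shares over all genes tested. Nploc4, a cofactor of the VCP segregase, rose 1.38-fold and the conjugating enzyme gene Ube2j2 1.34-fold. Herpud2 (log2 -0.50) and the ubiquitin ligase gene Rnf139 (log2 -0.71) fell. No member of this list passed the 2-fold null in either direction.

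In the list of unfolded protein response signalling, 10 of 22 tested genes were higher and 6 lower (24 listed, median 0.06). Bcl2l11, which encodes the death protein BIM, rose 3.89-fold and Creb3l2, an ER membrane factor related to ATF6, 3.23-fold (17.6 ± 0.419 against 5.57 ± 0.445 CPM). Crebrf, a regulator of CREB3, was 2.73-fold lower and Creb3 1.45-fold lower. Atf4 and its target Trib3, picked from this list after their values were seen, rose 2.08-fold (adjusted p = 3.1e-08) and 3.62-fold (adjusted p = 1.5e-07). Other genes of the list, Ddit3, Ppp1r15a, Ppp1r15b and Chac1 among them, entered only the counts above. The rises of Atf4 and Trib3 alone do not describe the PERK side of the response. Eif2ak3, which encodes PERK, was at 39.3 ± 2.80 and 35.8 ± 1.84 CPM and did not pass (adjusted p = 0.074).

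In mm10, Pdia6 lies at chr12:17266545-17284770, P4hb at chr11:120560298-120573253, Xbp1 at chr11:5520659-5525893, Syvn1 at chr19:6046576-6053712, Derl3 at chr10:75893413-75895941, Dnajc3 at chr14:118937976-118981697 and Dnajb9 at chr12:44205559-44210326. Exons of 10 members overlap a gene model on the opposite strand (Hsp90b1, Pdia3, Pdia6, Manf, Dnajb9, Syvn1, Derl2, Sec61a1, Ssr2 and Spcs1). Reads of the overlapping parts cannot be assigned to one strand, because whether counting used strand is unstated here.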

How the data were processed

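RNA of 3 tumor and 3 spleen libraries was read as single reads of 50 bp, 6 libraries to a lane, after low-input SMARTer and stranded TruSeq kits, per the labels' protocols. Tools listed by the submitters' processing notes are featureCounts, STAR 2.3 and bcl2fastq 2.20.0.422, with build mm10. Annotation release, strandedness and multi-mapping policy were unstated (not given in the sources used here). Gene-level whole-number counts came from the authors' deposited table, with no normalization, which has no row without a gene. Symbols, exons and coordinates came from GENCODE M21. A symbol was found for 55154 of 55335 identifiers, and 36 of the 37 members matched with their version number (not Xbp1).

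edgeR 4.0.16 in R 4.3.3 was fitted to all genes (TMM, filterByExpr with a minimum count of 10 and total of 15, quasi-likelihood F-test, tissue as the only factor), with Benjamini-Hochberg adjustment over 19783 genes and a threshold of 0.05. glmTreat tested against a 2-fold null. SE is the absolute log2 fold change over the square root of F. CPM are counts over library totals, scaled to 1000000. The procedure was tested on simulated data. Every pair of libraries differed by more than counting noise (chi-square per degree of freedom from 2.11), so none was treated as a library deposited again. This does not show that they are independent samples, and n counts the 3 libraries per tissue. Alternatives were other scalings, no filter, a replicate block, each library left out, limma-voom 3.58.1 and DESeq2 1.42.0.

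All members could be named; of each pathway list, the 2 genes with the smallest p in each direction; of marker lists, the highest gene in each tissue. Atf4, Trib3, Eif2ak3 and the other marker genes fall outside this rule and were named after their values were seen. The members and lists were chosen with earlier results of these data known. Bag6 is in 2 pathway lists, and Mzb1 and Txndc5 are also in the plasma cell list. No protein sequences were used here.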

Additional observations from a re-analysis of the deposited data

How the results depend on the processing

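Under 13 alternatives (3 other scalings, no filter on low counts, a replicate block, each of 6 libraries left out, limma-voom and DESeq2), no called member lost its call or changed sign, and 6 members gained one. With a replicate block 20 members were higher and 7 lower, as without it. Equal replicate numbers are not said to mark 1 mouse, and deviations of equal-numbered libraries correlated at -0.0076, 0.0417 and 0.0137, under the 0.1 asked for pairing. Leaving out 1 library gave 20 to 24 higher and 7 to 7 lower members, and moved no member's fold change by more than 1.27 times. The 1 member lower against the 2-fold null, Derl3, was lost with no filter (0 members, adjusted p = 0.07) and with the block (0 members, adjusted p = 0.05), and leaving out 1 library gave 0 to 1. The cause was not tested in either case; without the filter the fit changed too, with a log2 fold change of -1.48 (SE 0.251) in place of -1.50 (SE 0.198). Among uncalled members, Edem1, Pdia5 and Spcs1 changed sign in some alternatives. With upper-quartile scaling the median of all genes was -0.07 and that of the members 0.21. Depth limits Derl3 and Pdia5, which lie under 2 CPM in both tissues.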

Other observations

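Most genes, members included, varied more between tumor libraries than between spleen libraries. The coefficient of variation was larger in tumor for 33 of the 37 genes, with a median of 6.83% in tumor and 2.45% in spleen. Over the 19574 tested genes with counts in both tissues it was larger in tumor for 72.4% (medians 10.1% and 5.42%), and over the 10684 of these with a mean of at least 10 CPM for 79.3% (7.08% and 3.28%). Tumor replicate 3 was the highest tumor library for 20 of the 37 genes (54.1%), for 10 of the 16 folding genes and for 0 of the 8 degradation genes. Over all genes tested it was the highest tumor library for 41.3%.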
